A study of Mus musculus with 6 samples.

Results

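Acetyl-CoA, the carrier of acetyl groups for fat synthesis, sterol synthesis and histone acetylation, was examined through 8 genes whose products make it or move its precursors: Acly, Slc25a1, Acss2, Acss1, Mpc1, Mpc2, Crat and Acat1. They were taken by symbol from an RNA-seq table of 47643 genes, and each symbol matched 1 row, so all 8 of 8 were found. The libraries were made from sorted L-GMP of C57BL/6 mice, acute myeloid leukaemia cells labelled as granulocyte-macrophage progenitors (GMP), the stage from which granulocytes and monocytes normally arise. There were 3 libraries of KO cells, labelled Prkaa1 and Prkaa2 double knockout, and 3 of WT cells, labelled wild type. Prkaa1 and Prkaa2 each code for a catalytic chain of AMPK, the kinase that senses low cellular energy. The series title links AMPK to acetyl-CoA balance in acute myeloid leukaemia, and the question here is which of the 8 transcripts differed between KO and WT. The labels give no driver oncogene, age, sex, number of mice or way of deletion, and do not say whether libraries of a genotype are separate animals, so p-values reflect only how far these libraries scatter, and that scatter may be technical.

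Most acetyl-CoA is formed inside mitochondria, where pyruvate enters through the MPC1-MPC2 carrier and is oxidised by pyruvate dehydrogenase. Acetyl-CoA cannot cross the inner mitochondrial membrane. It leaves as citrate through the carrier SLC25A1 and is rebuilt in the cytosol and nucleus by ATP citrate lyase (ACLY), or it leaves as acetylcarnitine, made by carnitine acetyltransferase (CRAT). Free acetate is a second source, activated by ACSS2 in the cytosol and nucleus and by ACSS1 in mitochondria. ACAT1, a mitochondrial thiolase, splits acetoacetyl-CoA into acetyl-CoA during the use of ketone bodies, and it also acts in isoleucine breakdown.

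Values are FPKM, reads scaled by gene length and by a factor for the library, and are given as mean ± SD over n = 3 libraries per genotype. Folds are ratios of means, and log2 fold changes are KO minus WT on log2(FPKM + 1), where changes of genes with low FPKM come out too small. The words rose and fell are kept for genes with a limma adjusted p under 0.05. Whole reads recovered from the table came to 12372343 to 14025385 in KO libraries and 11390343 to 16415932 in WT libraries. The library factor did not follow these totals. FPKM times gene length for 1 read was 78.2 in KO replicate 1 (13872750 reads) and 78.7 in WT replicate 1 (11390343 reads). How that factor was set was not examined. Prkaa1 had 1.11, 0.735 and 0.548 FPKM in KO replicates 1, 2 and 3, against 2.01, 2.20 and 1.80 FPKM in WT replicates 1, 2 and 3 (limma adjusted p = 0.00112), so every KO library lay below every WT library without losing the transcript. Prkaa1 passed the minimum mean of 1 FPKM for testing only through its WT values. Prkaa2 had 4 reads in KO and 2 in WT, too few to show a loss at this depth. Of 9108 genes tested, 78.4% differed between the genotypes, 38.0% being higher in KO and 40.4% lower, so a call by itself does not set a gene apart. FPKM summed to 649611 to 653819 in KO libraries and to 463683 to 475654 in WT libraries. With libraries rescaled to equal sums, the median log2 change of all tested genes was -0.41 in place of -0.02, with 22.8% of genes higher and 59.1% lower.

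Of the 8 genes, 6 rose, 1 fell (Acat1) and 1 (Acly) did not pass. Those shares stand against 38.0% higher and 40.4% lower over all tested genes. With libraries rescaled to equal sums, where 81.9% of all tested genes differed, 4 rose (Acss2, Crat, Mpc1 and Mpc2), 3 fell (Slc25a1, Acly and Acat1) and Acss1 did not pass. The median log2 fold change of the 8 was 0.89, beside -0.02 over all tested genes, and 0.51 beside -0.41 after rescaling. All 8 passed the minimum mean of 1 FPKM, but Acss2 did so only through its KO values, its WT mean being 0.372 FPKM, so the counts and medians are descriptions.

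**Figure D1:**
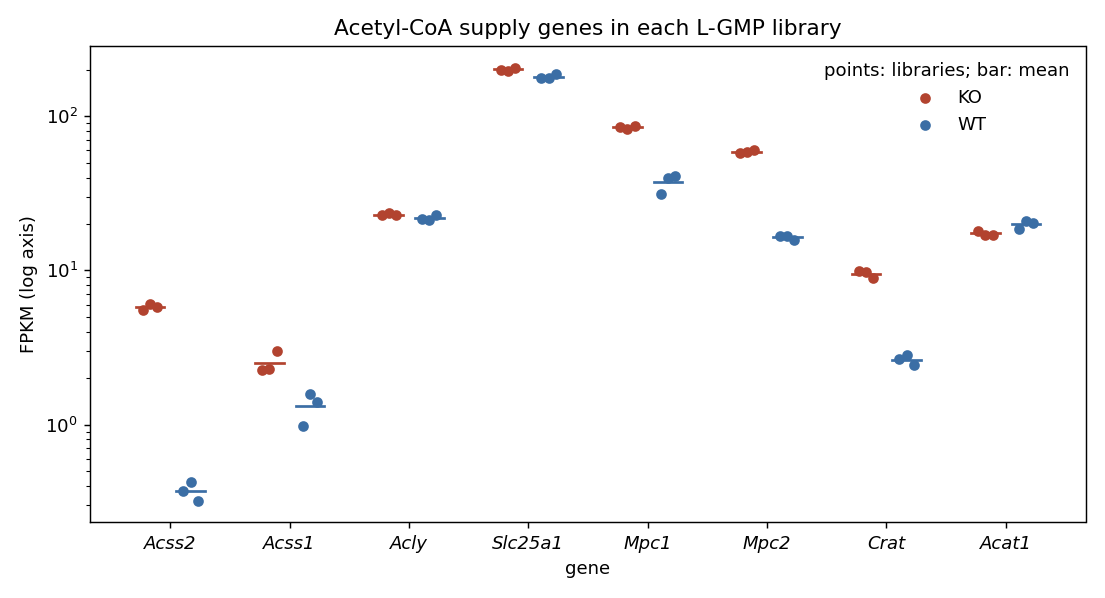
FPKM of the 8 genes in each library on a log axis, KO left of WT, with points for the 3 libraries of a genotype and a bar at their mean. Acss2 shows the widest gap, 5.51 to 6.02 FPKM in KO against 0.321 to 0.424 FPKM in WT, and Acly is the one gene whose groups overlap.

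RefSeq start windows of 4 of the genes are shown first, because Acss2, Mpc1 and Mpc2 rose more than 2-fold while Acly did not pass. They are the 250 bases before the start of the RefSeq transcript, from RefSeq on GRCm38.p6, read 5′ to 3′ on the gene's strand. That start need not be the one of the gene models behind the FPKM values: 95 of the 250 bases of the Acss2 window, 25 of the Mpc1 window and 223 of the Mpc2 window lie inside the span of the GENCODE principal transcript, and none of the Acly window. Capitals mark CCAAT or its reverse complement ATTGG, the box bound by the factor NF-Y. Promoters were found for 6 of the 8 genes, Crat and Acat1 having no entry.

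Acss2 (chr2:155517793-155518042, plus strand): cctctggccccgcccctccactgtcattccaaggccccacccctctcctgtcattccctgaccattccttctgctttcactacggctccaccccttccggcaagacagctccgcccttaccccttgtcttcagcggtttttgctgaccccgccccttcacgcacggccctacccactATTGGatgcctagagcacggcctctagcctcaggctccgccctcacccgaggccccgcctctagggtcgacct
Mpc1 (chr17:8283537-8283786, plus strand): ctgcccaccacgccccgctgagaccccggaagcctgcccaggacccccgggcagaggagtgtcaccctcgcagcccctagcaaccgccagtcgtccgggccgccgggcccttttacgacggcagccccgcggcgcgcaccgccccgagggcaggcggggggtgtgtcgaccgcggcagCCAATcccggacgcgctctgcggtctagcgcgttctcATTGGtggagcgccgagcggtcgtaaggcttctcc
Mpc2 (chr1:165461010-165461259, plus strand): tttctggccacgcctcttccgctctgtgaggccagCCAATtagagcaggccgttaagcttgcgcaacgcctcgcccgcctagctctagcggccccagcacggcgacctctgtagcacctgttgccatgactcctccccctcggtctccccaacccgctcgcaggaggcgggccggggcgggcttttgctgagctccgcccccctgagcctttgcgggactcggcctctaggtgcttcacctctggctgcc
Acly (chr11:100528001-100528250, minus strand): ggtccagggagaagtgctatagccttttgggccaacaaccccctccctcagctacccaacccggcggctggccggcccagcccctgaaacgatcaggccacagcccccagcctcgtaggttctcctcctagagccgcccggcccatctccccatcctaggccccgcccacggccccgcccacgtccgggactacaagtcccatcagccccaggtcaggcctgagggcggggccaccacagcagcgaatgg

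The CCAAT box was searched on both strands, with CACGTG (an E-box) and TCACNCCAC (a form of the sterol response element, N being any base). In Acss2, 1 ATTGG lay 73 to 69 bases before the RefSeq start, which is inside the span of the GENCODE principal transcript. Mpc1 held 1 CCAAT at 72 to 68 bases and 1 ATTGG at 35 to 31 bases before the RefSeq start, both outside its principal transcript but inside its annotated gene, and the window of its other RefSeq start held neither. The Mpc2 match lay 215 to 211 bases before the RefSeq start, also inside the span of its principal transcript. The Slc25a1 window, wholly outside the annotated gene, held 1 ATTGG at 125 to 121 bases. The windows of Acly and Acss1 held none of the 3 motifs. Of 32851 such windows in the table, 33.8% held a CCAAT box, 6.02% held CACGTG, found here in the Slc25a1 window alone, and 1.05% held TCACNCCAC, found in none of these genes. A match describes the letters and is no evidence of binding.

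The acetate-activating enzymes both rose. Acss2, the cytosolic and nuclear acetyl-CoA synthetase, had 5.51, 6.02 and 5.83 FPKM in KO, against 0.372, 0.424 and 0.321 FPKM in WT. The lowest KO library thus lay far above the highest WT library. The means were 5.78 ± 0.257 FPKM in KO and 0.372 ± 0.0516 FPKM in WT, a 15.5-fold difference (log2 fold change 2.31, SE 0.07, limma adjusted p = 1.46e-07). It rests on 716, 697 and 766 reads in KO and 48, 78 and 46 reads in WT. With a pseudocount of 0.1 in place of 1 the log2 fold change was 3.64 and with voom on the recovered reads 3.94, with adjusted p-values from 2.43e-13 to 1.01e-05 over 13 alternatives. Among all tested genes its log2 fold change was the 201st from the highest, within the top 2.21%. That rank holds for log2(FPKM + 1) only. Acss2 was tested only through its KO values, so the rank and the adjusted p-values are descriptions.

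Acss2 (ENSMUSG00000027605, mm10 chromosome 2, 155517948 to 155585724, plus strand) has a gene model much wider than its principal transcript. The exons of its 10 annotated transcripts cover 10163 bases, while its principal transcript is 2931 bases long and ends at 155562746. Some of the longer transcripts run into the neighbouring Gss, a glutathione synthetase gene on the other strand, with which 3.89% of the exonic bases of Acss2 are shared. Gss had 15.5, 16.3 and 17.4 FPKM in KO, against 6.04, 6.39 and 7.08 FPKM in WT. The overlapping antisense gene Acss2os and the overlapping Ggt7 were listed at 0 in all 6 libraries. The libraries were made with Smart-seq2 and Nextera XT, which do not mark the strand, so reads from a shared stretch cannot be told apart. How many reads of Acss2 came from that stretch was not tested.

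Acss1, the mitochondrial acetyl-CoA synthetase, had 2.27, 2.29 and 2.996 FPKM in KO, against 0.972, 1.57 and 1.39 FPKM in WT. The groups did not overlap, but Acss1 was the noisiest of the 8 genes, with a coefficient of variation of 16.3% in KO and 23.3% in WT. It rose 1.92-fold, with 2.52 ± 0.411 FPKM in KO and 1.31 ± 0.305 FPKM in WT (log2 fold change 0.61, SE 0.13, limma adjusted p = 0.00360). It rests on 388 reads in KO and 249 in WT. Rescaled to equal sums, its log2 fold change was 0.31 and the call was lost (adjusted p = 0.0602, in a range of 0.000260 to 0.0602 over 13 alternatives). Acss1 (ENSMUSG00000027452) lies on chromosome 2 from 150618105 to 150668500, minus strand.

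The citrate route moved little. Acly, the lyase that cleaves citrate in the cytosol, had 22.9, 23.5 and 22.8 FPKM in KO, against 21.5, 21.3 and 22.9 FPKM in WT. The lowest KO value lay under the highest WT value, so the groups overlapped. The means were 23.1 ± 0.400 FPKM in KO and 21.9 ± 0.886 FPKM in WT, a ratio of 1.05 (log2 fold change 0.07, SE 0.04, limma adjusted p = 0.169). These values rest on 4515 reads in KO and 5185 in WT. Quantile normalization gave a log2 fold change of 0.12 and a call (adjusted p = 0.0441), while rescaling to equal sums gave -0.38 and a call the other way (adjusted p = 7.04e-05), in a range of 7.04e-05 to 0.386 over 14 alternatives. Acly (ENSMUSG00000020917) lies on chromosome 11 from 100476353 to 100528000, minus strand, and shares no exonic base with another gene.

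Slc25a1, the mitochondrial citrate carrier, had the highest FPKM of the 8 genes in both genotypes. It had 201, 197 and 207 FPKM in KO, against 177, 177 and 188 FPKM in WT. The groups were close but separate. It rose 1.12-fold, with 202 ± 5.16 FPKM in KO and 181 ± 6.43 FPKM in WT (log2 fold change 0.16, SE 0.03, limma adjusted p = 0.00328). The direction depends on scaling, since the log2 fold change was -0.31 with libraries rescaled to equal sums (adjusted p = 3.93e-05, in a range of 3.93e-05 to 0.0194 over 14 alternatives). Against the median of -0.41 over all tested genes under that scaling, Slc25a1 still lay above and Acly, at -0.38, close by. Slc25a1 (ENSMUSG00000003528) lies on chromosome 16 from 17925223 to 17928219, minus strand.

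Both subunits of the mitochondrial pyruvate carrier rose. Mpc2 had 57.8, 58.3 and 60.8 FPKM in KO, against 16.8, 16.8 and 15.8 FPKM in WT. Replicates agreed to within 2.72% in KO and 3.41% in WT as a coefficient of variation. Mpc2 rose 3.58-fold, with 59.0 ± 1.61 FPKM in KO and 16.5 ± 0.562 FPKM in WT (log2 fold change 1.78, SE 0.04, limma adjusted p = 2.98e-08), the lowest adjusted p of the 8 genes. The gene (ENSMUSG00000026568) lies on chromosome 1 from 165460637 to 165481214, plus strand, and shares no exonic base with another gene. Its gene model is also wide, with exons covering 7344 bases and a principal transcript of 1025 bases.

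Mpc1, its partner, had 85.0, 83.3 and 86.6 FPKM in KO, against 31.1, 39.6 and 41.1 FPKM in WT. WT replicate 1 lay below the other two WT libraries. Mpc1 rose 2.28-fold, with 84.9 ± 1.66 FPKM in KO and 37.3 ± 5.40 FPKM in WT (log2 fold change 1.18, SE 0.10, limma adjusted p = 1.99e-05, in a range of 3.53e-11 to 0.000192 over 15 alternatives). The gene (ENSMUSG00000023861) lies on chromosome 17 from 8282904 to 8297661, plus strand. It shares 23.1% of its exonic bases with the non-coding 4930506C21Rik on the other strand, which had 0.117 to 0.197 FPKM in KO and 0 to 0.0793 FPKM in WT.

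Mpc1 has a processed pseudogene, Mpc1-ps, whose 330 bases match it at 99.7% identity and which was itself listed high, at 211, 217 and 222 FPKM in KO, against 129, 100 and 105 FPKM in WT. Reads of the pair cannot be told apart with confidence at such identity, so each value alone is uncertain. Mpc1-ps took 28.2, 29.2 and 28.9% of the summed reads in KO, against 39.7, 28.6 and 28.8% in WT, the highest share being in WT replicate 1. Summed over the pair and expressed over the Mpc1 length, the level was 119 ± 2.18 FPKM in KO and 54.9 ± 3.14 FPKM in WT, 2.17-fold higher in KO (log2 fold change 1.11, SE 0.04, limma adjusted p = 3.97e-07). This sum was added after the values were seen.

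Crat, which transfers acetyl groups between coenzyme A and carnitine, had 9.87, 9.78 and 8.89 FPKM in KO, against 2.64, 2.81 and 2.43 FPKM in WT. Each KO library was more than 3-fold above each WT library. Crat rose 3.62-fold, with 9.51 ± 0.539 FPKM in KO and 2.63 ± 0.188 FPKM in WT (log2 fold change 1.53, SE 0.07, limma adjusted p = 9.12e-07). The reads behind it numbered 1901 in KO and 640 in WT. The gene (ENSMUSG00000026853) lies on chromosome 2 from 30400471 to 30415813, minus strand. Of its exonic bases 8.72% are shared with other genes, among them Dolpp1, on the other strand, at 13.1 to 13.8 FPKM in KO and 31.9 to 35.9 FPKM in WT.

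Acat1, the thiolase of ketone body and isoleucine breakdown, had 18.1, 17.1 and 17.0 FPKM in KO, against 18.6, 20.8 and 20.3 FPKM in WT. The KO values lay under the WT values by a narrow margin. Acat1 fell, with 17.4 ± 0.625 FPKM in KO and 19.9 ± 1.16 FPKM in WT (log2 fold change -0.18, SE 0.05, limma adjusted p = 0.0182). The call was lost without KO replicate 2 (adjusted p = 0.0520), KO replicate 3 (0.0530), WT replicate 2 (0.0659) or WT replicate 3 (0.0589), in a range of 1.65e-05 to 0.0659 over 14 alternatives. Acat1 (ENSMUSG00000032047) lies on chromosome 9 from 53580522 to 53610382, minus strand.

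**Figure D2:**
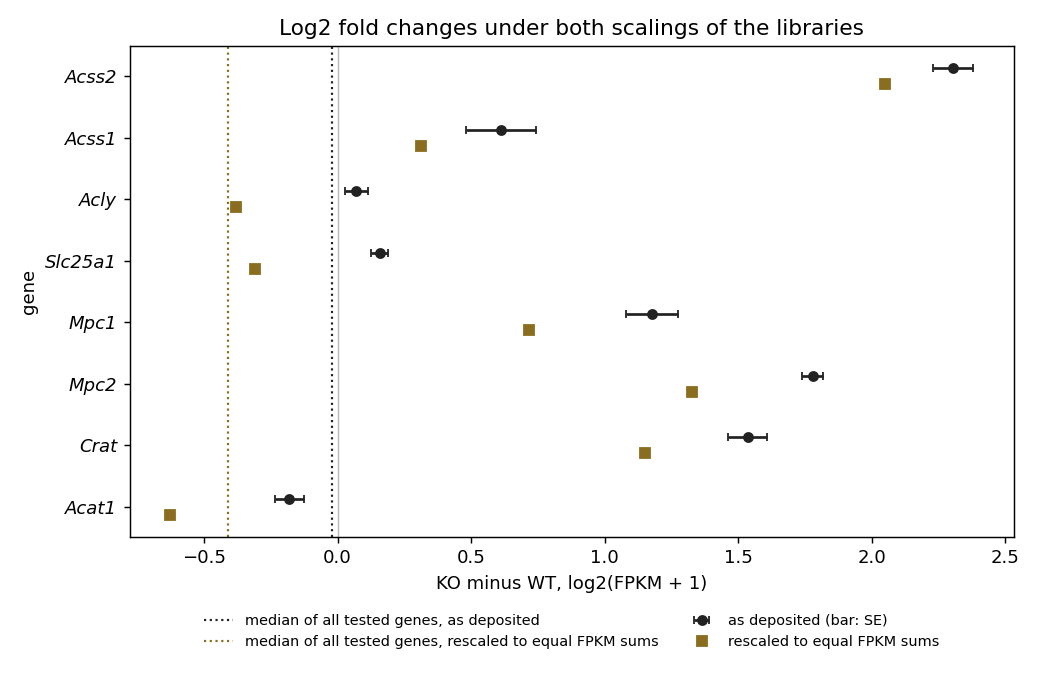
Log2 fold change of each gene, KO minus WT on log2(FPKM + 1), as deposited (circles, with SE) and with libraries rescaled to equal FPKM sums (squares), and the median of all tested genes under each scaling (dotted lines). Acss2, Mpc2, Crat and Mpc1 lay above 0 under both scalings, at 2.31, 1.78, 1.53 and 1.18 as deposited and 2.05, 1.33, 1.15 and 0.72 rescaled, while Slc25a1 and Acly changed sign.

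Ratios between genes of 1 library do not depend on how the library was scaled, and 5 such ratios of FPKM were compared. Acss2 to Acss1 was 2.42, 2.62 and 1.94 in KO, against 0.382, 0.271 and 0.231 in WT, so the enzyme with the higher FPKM was Acss2 in KO and Acss1 in WT. Acss2 to Acly was 0.251 ± 0.00861 in KO and 0.0171 ± 0.00297 in WT, 14.7-fold higher in KO. Crat to Acat1 was 0.546 ± 0.0253 in KO and 0.132 ± 0.0113 in WT, 4.13-fold higher in KO.

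Slc25a1 to Acly, the carrier and the lyase of the citrate route, was 8.79, 8.37 and 9.09 in KO, against 8.22, 8.32 and 8.21 in WT. This ratio was 1.06-fold higher in KO, with a gap between the nearest libraries smaller than the spread within KO. Mpc1 to Mpc2 was lower in KO, at 1.47, 1.43 and 1.42, against 1.85, 2.35 and 2.59 in WT, which is the larger rise of Mpc2 seen as a ratio. With the reads of Mpc1-ps added to Mpc1 it was 2.05, 2.02 and 2.001 in KO, against 3.07, 3.30 and 3.65 in WT. In each of the 5 ratios the groups did not overlap, which for single genes was so in 80.6% of those tested (39.1% with KO above WT and 41.6% with KO below). Each gave p = 0.1 in a two-sided exact permutation test, the smallest that 3 against 3 libraries allow, and 0.1 after Benjamini-Hochberg adjustment over the 5.

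**Figure D3:**
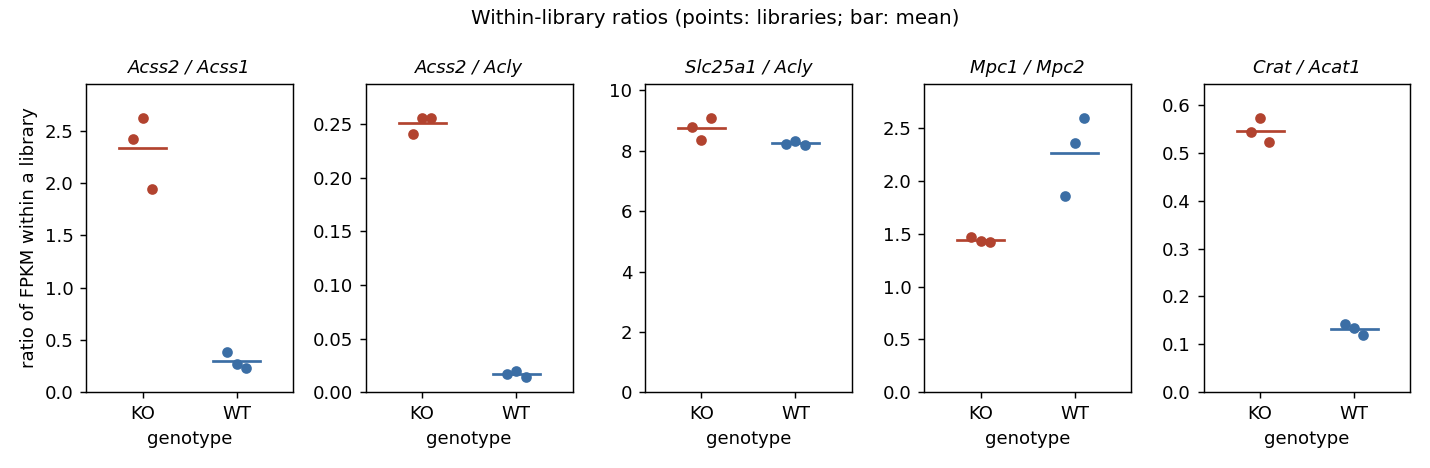
Ratio of FPKM between 2 genes of the same library for 5 pairs, KO left of WT, with points for libraries, a bar at the mean and each axis starting at 0. Acss2 to Acly was 0.251 in KO and 0.0171 in WT, while Slc25a1 to Acly was 8.75 in KO and 8.25 in WT.

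The order of FPKM levels also differed between the genotypes. In KO it ran Slc25a1, Mpc1, Mpc2, Acly, Acat1, Crat, Acss2 and Acss1, and in WT Slc25a1, Mpc1, Acly, Acat1, Mpc2, Crat, Acss1 and Acss2. No 2 neighbours in either order overlapped between libraries. Mpc2 thus stood above Acly in KO (59.0 against 23.1 FPKM) and below Acat1 in WT (16.5 against 19.9 FPKM). The order depends on the gene length used, which is the union of all exons in the table. Per length of the principal transcript, a choice added after the values were seen, Mpc2 came first in KO (423 FPKM) and Slc25a1 first in WT (236 FPKM). On that length Acss2 stood at 20.1 ± 0.891 FPKM in KO, overlapping Acat1 at 19.2 ± 0.690, and at 1.29 ± 0.179 FPKM in WT, overlapping Acss1 at 1.49 ± 0.348. The fold between KO and WT is the same on either length, but values on log2(FPKM + 1) and the minimum of 1 FPKM depend on it, and on the principal transcript the WT mean of Acss2 would pass that minimum.

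Other genes of acetyl-CoA metabolism were counted by list, as a description with no test of any list. Their counts stand against 38.0% higher and 40.4% lower over all tested genes, or 22.8% higher and 59.1% lower after rescaling to equal sums. Of 10 tested genes of the pyruvate dehydrogenase complex and citrate formation, 2 rose, 6 fell and 2 did not pass (median log2 fold change -0.24, beside -0.02 over all tested genes), and 2 rose and 8 fell with libraries rescaled to equal sums. The tested genes named below from these pathway lists, which leave out the cell type markers, kept their direction and call under that rescaling. The genes that rose were Pdp1 and Pdk3. Pdp1, a phosphatase that activates the complex, rose 3.82-fold, with 4.85 ± 0.461 FPKM in KO and 1.27 ± 0.0899 FPKM in WT (limma adjusted p = 4.06e-06). Pdk3, a kinase that inactivates it, rose 2.17-fold, with 59.1 ± 4.08 FPKM in KO and 27.3 ± 1.21 FPKM in WT (limma adjusted p = 1.72e-06). Pdk1, another such kinase, fell to 1.55 ± 0.221 FPKM in KO, against 3.70 ± 0.179 FPKM in WT (limma adjusted p = 5.82e-05). Of 5 tested genes that use citrate or carry malate and related acids, 4 rose and 1 did not pass (median 0.51), and 2 rose and 0 fell after rescaling. Idh1, which makes NADPH from isocitrate in the cytosol, rose 2.37-fold to 126 ± 4.20 FPKM in KO, against 53.3 ± 0.700 FPKM in WT (limma adjusted p = 5.47e-08), and Slc25a10, the dicarboxylate carrier, 1.69-fold (38.6 ± 0.642 FPKM in KO and 22.8 ± 1.45 FPKM in WT).

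Of 5 tested genes listed for the carnitine shuttle other than Crat, among them Slc25a29, now known as a mitochondrial carrier of basic amino acids, 4 rose and 1 did not pass (median 0.67), and 3 rose and 1 fell after rescaling. Cpt1a, which loads long fatty acids onto carnitine, rose 2.34-fold, with 9.78 ± 0.506 FPKM in KO and 4.17 ± 0.570 FPKM in WT (limma adjusted p = 2.78e-05), and Slc25a29 2.30-fold (6.78 ± 0.840 FPKM in KO and 2.95 ± 0.295 FPKM in WT). Other routes of acetate, ketone bodies and leucine were mixed, with 4 of 10 rising, 5 falling and 1 not passing (median -0.07), or 2 rising and 7 falling after rescaling. Slc16a3, a monocarboxylate transporter that exports lactate, fell to 7.08 ± 0.863 FPKM in KO, against 19.8 ± 0.544 FPKM in WT (limma adjusted p = 3.49e-06). Bdh1, a ketone body dehydrogenase, fell to 1.59 ± 0.430 FPKM in KO, against 4.96 ± 0.303 FPKM in WT (limma adjusted p = 7.28e-05), with 13.7% of its exonic bases shared. Of 6 tested genes listed for acetyl-CoA hydrolysis and export, 4 rose and 2 fell (median 0.37), and 1 rose and 2 fell after rescaling. Acot12, of the same list, was at 0 in all 6 libraries and had no test. Whether the tested thioesterases act on acetyl-CoA itself was not examined. Acot8, a peroxisomal thioesterase, rose 2.03-fold to 44.6 ± 0.667 FPKM in KO, against 21.97 ± 2.40 FPKM in WT, and Acot2, a mitochondrial one, fell to 0.0356, 0.160 and 0 FPKM in KO, against 3.01, 2.87 and 2.49 FPKM in WT. Acot2 passed the minimum through its WT values alone, and it has a close paralog, Acot1, so its value is uncertain.

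Of 4 tested fatty acid synthesis genes, 2 rose and 2 fell (median 0.20), with the same counts after rescaling. Scd2, a desaturase, rose 1.78-fold, with 20.2 ± 0.935 FPKM in KO and 11.4 ± 0.814 FPKM in WT, and Mlycd, which degrades malonyl-CoA, 1.52-fold, with 27.8 ± 0.810 FPKM in KO and 18.4 ± 0.750 FPKM in WT. The 2 that fell were Fasn, at 12.3 ± 0.406 FPKM in KO and 14.0 ± 0.262 FPKM in WT, and Elovl6, at 7.19 ± 0.380 and 9.15 ± 0.194 FPKM. Of 17 tested sterol synthesis genes, 8 rose, 3 fell and 6 did not pass (median 0.12), and after rescaling 4 rose and 9 fell. Mvd, of the mevalonate pathway, rose 2.54-fold to 207 ± 7.10 FPKM in KO, against 81.3 ± 1.51 FPKM in WT (limma adjusted p = 3.65e-08), and Sqle (squalene epoxidase) 1.88-fold to 28.4 ± 0.402 FPKM in KO, against 15.1 ± 0.746 FPKM in WT.

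Among 7 tested histone acetyltransferases, 2 rose, 3 fell and 2 did not pass (median -0.03), and 1 rose and 6 fell after rescaling. Kat2a (GCN5) fell to 3.97 ± 0.307 FPKM in KO, against 9.78 ± 0.983 FPKM in WT (limma adjusted p = 1.53e-05), and Ep300 (p300) rose 2.21-fold to 1.90 ± 0.0303 FPKM in KO, against 0.862 ± 0.106 FPKM in WT, having passed the minimum through its KO values alone. Of 5 tested genes of coenzyme A synthesis, 2 rose, 2 fell and 1 did not pass (median -0.08), and 1 rose and 4 fell after rescaling. Pank2, a pantothenate kinase, rose 3.79-fold, with 13.8 ± 1.34 FPKM in KO and 3.63 ± 0.319 FPKM in WT, but 22.9% of its exonic bases overlap other genes. Ppcdc, which acts 2 steps later, fell to 6.42 ± 0.881 FPKM in KO, against 19.4 ± 0.438 FPKM in WT. Of 3 tested AMPK subunits, Prkaa1 and Prkab1 fell and Prkag1 rose 1.61-fold (113 ± 3.33 FPKM in KO and 70.1 ± 0.986 FPKM in WT), the last with 43.7% of its exonic bases shared and Prkaa1 tested only through its WT values.

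**Figure D4:**
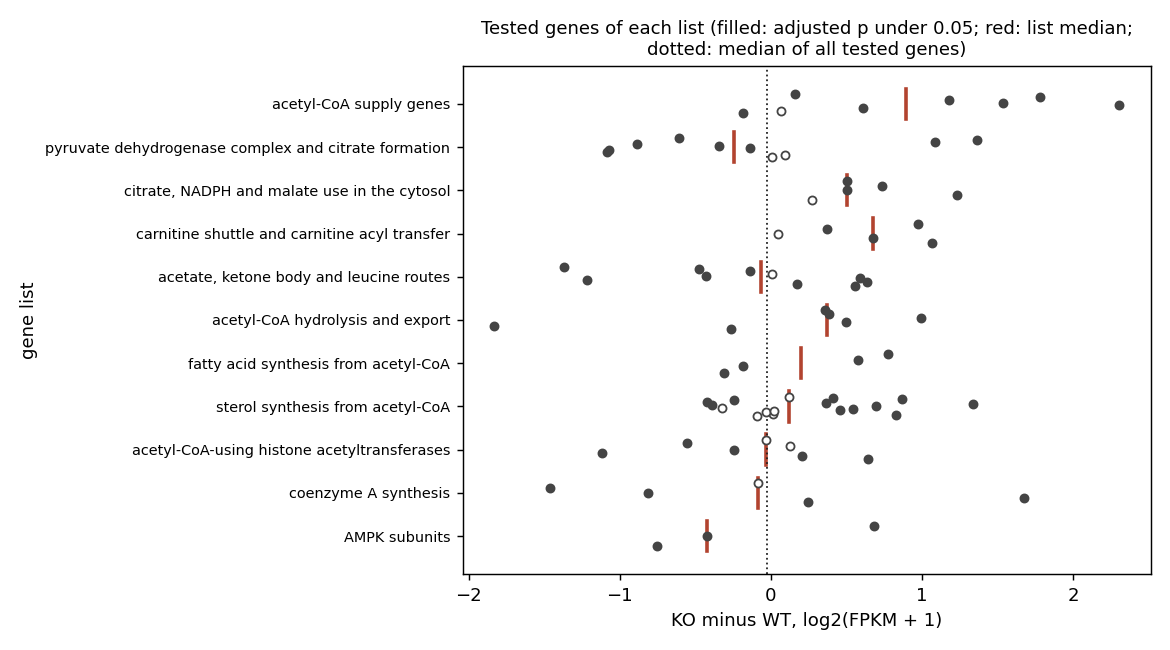
Log2 fold changes, KO minus WT on log2(FPKM + 1), of the tested genes in each list, one point per gene, filled where the adjusted p was under 0.05, with a red bar at the list median and a dotted line at the median of all tested genes, -0.02. The medians of the 8 acetyl-CoA supply genes (0.89) and of the carnitine list (0.67) lay to the right of that line, and the median of the pyruvate dehydrogenase list (-0.24) to the left, with single genes of the first and the last list on either side.

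Markers of other cell types moved between the same libraries. Summed over 10 neutrophil maturation markers, expression was 71422 to 72818 FPKM in KO and 317 to 332 FPKM in WT, with 8 of the 10 at a mean of 1 FPKM or more in KO and 6 in WT, Mmp9 at 0 in KO and Retnlg at 0 in WT. A few of the 10 made up nearly all of the KO sum. Others moved far less, with means of 51.5 FPKM in KO and 16.3 FPKM in WT for Mmp8. For Camp they were 10.3 and 6.74 FPKM, a difference not called after rescaling to equal sums. Summed over 9 markers of eosinophils, basophils and mast cells it was 575 to 604 FPKM in KO and 32.9 to 39.0 FPKM in WT, where Epx, Prss34 and Fcer1a were at 0. Summed over 10 erythroid markers it was 79.2 to 83.6 FPKM in KO and 12.3 to 15.1 FPKM in WT, where Gata1, Car1 and Epor were among those at 0, while Alas2 was at 0 in KO. The 9 markers of granulocyte-monocyte progenitors were detected in both genotypes, 9 of them at a mean of 1 FPKM or more in KO and 8 in WT. They summed to 17068 to 17378 FPKM in KO and 8249 to 8568 FPKM in WT, but moved in both directions. Among them the granule protein genes Mpo, Elane, Prtn3 and Ctsg were detected in all 6 libraries and were higher in KO as deposited. Ctsg was only 1.17-fold higher (means 6362 and 5423 FPKM), and it was lower in KO after rescaling to equal sums (log2 fold change -0.24). Elane had a mean of 7923 FPKM in KO and 1758 FPKM in WT, and Prtn3 2056 and 472 FPKM. Kit was also higher in KO, at 1.41 to 1.46 FPKM, against 0.180 to 0.309 FPKM in WT. Among those lower in KO were Cd34, at 3.37 to 3.68 FPKM against 27.0 to 28.7 FPKM in WT, and Ms4a3 (means 365 and 429 FPKM). Of 6 B cell markers Pax5 was among those at 0 in all libraries, and the sum was 1.94 to 3.25 FPKM in KO and 51.5 to 56.8 FPKM in WT, nearly all of it Cd79b. Of 6 T cell markers Cd3e, Cd3g and Cd8a were at 0 in all libraries, and the sum was 0.709 to 1.23 FPKM in KO and 2.12 to 2.26 FPKM in WT. Nearly all of the WT sum was Lck, with a mean of 0.588 FPKM in KO and 2.15 FPKM in WT. Cd3d went the other way, with a mean of 0.358 FPKM in KO and 0.0179 FPKM in WT. The part of these shifts in the differences of the 8 genes was not tested, and in such bulk samples fewer cells of a type and less RNA per cell cannot be told apart.

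The genes whose pattern over the 6 libraries was most like that of each of the 8 were found by the Euclidean distance between log2(FPKM + 1) values centred on each gene's mean. For Acss2 they were Tuba1a (distance 0.10003) and Nfkbia (0.109), for Crat Wls (0.081) and Fcgr1 (0.083), and for Mpc2 Dhrs7 (0.072) and Cnbd2 (0.096). For Mpc1 they were Mocs3 (0.134) and Sgms1 (0.138), and for Acss1 Cebpa (0.127) and Trappc9 (0.136). The weakly changed Acly lay nearest Tuba1b (0.045) and Med27 (0.049), Slc25a1 nearest Tpm1 (0.053) and Napa (0.062), and Acat1 nearest Lbp (0.041) and Dis3l2 (0.049). Within a distance of 0.2 lay 558 tested genes for Acly but 6 for Acss1, 13 for Mpc1, 23 for Acss2 and 55 for Mpc2. Because log2(FPKM + 1) shrinks changes of genes with low FPKM, genes near each other by this distance can differ in fold. Tuba1a had means of 72.5 FPKM in KO and 14.3 FPKM in WT, against 5.78 and 0.372 FPKM for Acss2. Fcgr1, Cnbd2 and Sgms1 passed the minimum through their KO values alone, with WT means of 0.382, 0.900 and 0.293 FPKM.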

How the data were processed

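RNA-seq was measured in 6 libraries, 3 KO and 3 WT, grouped by their titles. Per the submitters' processing notes the tools were CASAVA, bcl2fastq, STAR 2.5.3a and DESeq2 1.18.1, with the mm10 build. The authors deposited 1 table of FPKM values for 47643 Ensembl IDs. The way reads were counted (annotation, strand setting, multimapped reads) is not given in the sources used here, so genes with overlapping or near-identical partners are uncertain.

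The 9108 genes whose mean reached 1 FPKM were tested on log2(FPKM + 1) with limma 3.58.1 in R 4.3.3, with empirical Bayes moderation and a mean-variance trend, two-sided, with Benjamini-Hochberg adjustment over all 9108 genes at a threshold of 0.05. The fit was also run on simulated data with far fewer changed genes than here. That run checked the code only and says nothing on the calls made here. Whole reads were recovered by dividing FPKM by the value of 1 read, which gave whole numbers within 0.001 for 16481 genes at the exonic length in GENCODE M21 (GRCm38) and for 4650 at a searched length (Slc25a1 among them), where the read number is the smallest the values allow. Those reads gave the depths and 1 alternative. Copies were sought with BLAST at 95% identity over at least 200 bases. Figures and ratios used Python 3.11.15, scipy 1.17.1 and matplotlib 3.10.9.

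The members, lists and tests were chosen with earlier results of these data known. Named genes were all 8 members, the 2 tested genes with the largest absolute log2 fold change in each pathway list, and the 2 tested genes nearest to each member. Gss, Dolpp1, Mpc1-ps and other overlapping genes were named for their overlap, and Prkab1 to complete a count of 3. Pdk1, Fasn and Elovl6 were named because they fell where the 2 largest changes of their lists were rises. Same-numbered libraries did not deviate together, so no block was used. Some marker genes are not reported by name here.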

Additional observations from a re-analysis of the deposited data

How the results depend on the processing

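Over 13 to 15 alternatives each, Acss2, Crat, Mpc1 and Mpc2 kept their direction and their call, with log2 fold changes of 2.05 to 3.94, 1.15 to 1.84, 0.72 to 1.2505 and 1.33 to 1.84. With libraries rescaled to equal FPKM sums, Acly reversed to -0.38 and Slc25a1 to -0.31, 3 of the 8 genes were lower in place of 1, and over all tested genes 2074 were higher in place of 3464. That scaling also took the call from Acss1. The cause was not tested. A minimum mean of 5 FPKM left 4455 calls of 7140, 2072 higher and 2383 lower, because fewer genes were tested, and left Acss1 and Acss2 untested. Without any filter 5769 genes were lower, in place of 3676, because more were tested. Leaving out 1 library at a time gave 6812 to 6979 calls over all genes, 3305 to 3380 higher and 3507 to 3603 lower. Of the 8 genes it gave 6 to 7 calls, 6 of them higher each time and 0 to 1 lower, the change being Acat1. With 1 library left out, the log2 ratio of Acss2 to Acss1, KO minus WT, ran from 2.84 to 3.21. For Acss2 to Acly the range was 3.76 to 4.01, and for Crat to Acat1 1.98 to 2.10. For Slc25a1 to Acly it was 0.056 to 0.116, and for Mpc1 to Mpc2 -0.780 to -0.536. No sign could change, because the groups did not overlap in any of the 5 ratios. Replicate numbers are shared between genotypes in the labels, but deviations of same-numbered libraries correlated at only 0.00946, -0.0118 and -0.0166, so the numbers show no pairing. With the replicate block, 7040 genes were called, 3420 higher and 3620 lower, and 7 of the 8 genes as before (6 higher and 1 lower). Depth limits Acss1 and Acss2 most, at 249 and 172 reads over the 3 WT libraries.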

Other observations

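Some genes of the same lists had a mean below 1 FPKM and therefore no test. Of these, a few enzymes next to citrate and acetyl-CoA were chosen for mention after their values were seen. Pcx, pyruvate carboxylase, which supplies the oxaloacetate that joins acetyl-CoA in citrate, had 1.37, 1.66 and 1.68 FPKM in KO, against 0.276, 0.401 and 0.282 FPKM in WT. Acaca, which commits cytosolic acetyl-CoA to fatty acid synthesis, had 1.15, 1.11 and 1.19 FPKM in KO, against 0.535, 0.528 and 0.436 FPKM in WT. Acacb, also of the fatty acid synthesis list, went the other way. It had 0.0243, 0.00911 and 0 FPKM in KO, against 0.278, 0.287 and 0.552 FPKM in WT. Me1, the cytosolic malic enzyme, was listed at 0 in the 3 KO libraries, against 0.409, 0.517 and 0.516 FPKM in WT. In each of Pcx, Acaca, Acacb and Me1 the groups did not overlap. That was so for 80.6% of all tested genes, a set without these genes, and the share among genes below 1 FPKM was not computed.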
